A study of Mus musculus with 16 samples.

Results

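The levels of 10 myeloid genes were examined in mouse bone marrow-derived mast cells given an agonist antibody to TIM-3: Lyz2, Cd14, Clec7a, Fcgr1, Csf1r, Mmp8, Mpo, Hp, Tgfbi and Emb. They were chosen by name, as markers of macrophages and neutrophils whose log2 ratio of anti-TIM-3 over control IgG was low in activated cells at 16 h. That ratio is therefore described here without a test. The 10 genes had 16 of the 41174 probes on the array, 14 of their probes passed the filter on dim probes, and each gene was represented by its brightest probe among 17101 genes. All 10 representing probes were well above background on 16 of 16 arrays in both channels.

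Every culture had been grown from bone marrow for over 4 weeks in medium with 10% FCS, IL-3 at 5 ng/ml and SCF at 40 ng/ml, which gives immature mast cells. The series' design text puts purity above 90% by FcERIa and c-kit, so other cells could remain. Resting cells received only the antibody or IgG, each at 15 ug/ml, for 2 h or 16 h. Activated cells were first loaded with anti-DNP IgE at 5 ug/ml for 1 h and then received the antigen DNP-HSA at 100 ng/ml together with the antibody or IgG for 2 h or 16 h. Each of the 4 groups (resting 2 h, activated 2 h, resting 16 h, activated 16 h) had 4 two-colour arrays, numbered as replicates 1 to 4. The anti-TIM-3 RNA was on Cy5 and the goat IgG control RNA on Cy3 on every array. The antibody was polyclonal and raised in goat.

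TIM-3 is a surface receptor of the immunoglobulin superfamily found on T cells, myeloid cells and mast cells. Mast cells, macrophages and neutrophils all descend from myeloid progenitors of the bone marrow. Macrophages develop under signals through the Csf1r receptor and the transcription factor PU.1. Neutrophil granule proteins such as Mpo are made early, in promyelocytes, under PU.1 and the C/EBP factors. Mast cells grown in IL-3 and SCF share PU.1 and several receptors with these lineages.

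The share of spots whose signal stood well above its background was 53.7% to 62.1% for Cy3 and 54.8% to 67.7% for Cy5, with none saturated. The 17 mast cell markers all passed the filter, and the summed Cy3 level of the 13 measured on every array was 282780 to 332440. No array had swapped dyes, so within a group the effect of the antibody and a dye bias cannot be told apart, whereas a constant dye bias cancels between groups. The ratios of 3 resting arrays stood apart: resting 16 h replicates 1 and 3 correlated at 0.79 with each other but at -0.19 to -0.01 with resting 2 h replicates 1 and 2 over all genes, and resting 2 h replicate 3 correlated with them at 0.52 and 0.64. Calls that use these arrays are given without them too. The labels do not say that replicates were separate cultures, so p-values measure the spread between arrays, which may be technical. In such bulk RNA, fewer cells of a type and less RNA per cell cannot be told apart.

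Promoter sequence is shown for 3 of the genes that encode proteins of granules or secretion, because PU.1 and C/EBP factors are known to act on genes of this kind. All 10 genes were chosen for a low ratio, and any part of these factors in it was not tested. The RefSeq table of build GRCm38.p6 gave a usable window for 7 of the 10 genes. The windows hold the 250 bases before the annotated start, on the gene's strand, 5′ to 3′. They are chr9:7558179-7558428 (plus strand) for Mmp8, chr11:87793534-87793783 (plus strand) for Mpo and chr10:117282273-117282522 (minus strand) for Lyz2. Capitals mark exact matches, on either strand, to the PU.1 letters GAGGAAGT or the C/EBP letters TTGCNNAA.
Mmp8: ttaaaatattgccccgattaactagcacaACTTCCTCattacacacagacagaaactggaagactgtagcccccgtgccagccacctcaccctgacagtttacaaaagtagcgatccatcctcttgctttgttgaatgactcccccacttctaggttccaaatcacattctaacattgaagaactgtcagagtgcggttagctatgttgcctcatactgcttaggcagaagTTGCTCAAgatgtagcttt
Mpo: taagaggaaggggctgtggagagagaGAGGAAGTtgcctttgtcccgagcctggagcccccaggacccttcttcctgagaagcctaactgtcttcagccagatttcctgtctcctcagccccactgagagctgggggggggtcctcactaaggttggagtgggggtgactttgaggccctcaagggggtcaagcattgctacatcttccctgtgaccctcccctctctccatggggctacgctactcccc
Lyz2: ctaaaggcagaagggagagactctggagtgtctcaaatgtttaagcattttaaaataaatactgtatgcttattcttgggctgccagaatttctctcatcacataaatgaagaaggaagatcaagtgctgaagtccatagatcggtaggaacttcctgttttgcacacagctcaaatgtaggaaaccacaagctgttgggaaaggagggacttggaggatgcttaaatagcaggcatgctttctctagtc

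The full PU.1 letters were present in 2 of the 7 windows, in Mmp8 at 221 to 214 bases before the start and in Mpo at 224 to 217 bases, against 2.44% of 32851 promoters of the same length. Shorter or inexact matches were not searched, so a window without a mark can hold near matches, as that of Lyz2 does. The C/EBP letters were present in Mmp8 only, at 19 to 12 bases before the start, against 9.56% of promoters. The AP-1 letters TGANTCA were in none of the 7, against 6.75% of promoters. No match overlapped another. These matches describe letters in the window and were not tested as binding sites.

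In activated cells at 16 h, all 10 genes had lower levels with anti-TIM-3 than with IgG on all 4 arrays. Their median log2 ratio was -0.84, which is 1.80-fold lower, against 0.0091 for all genes. The median over the 10 genes was -1.03, -0.58, -0.79 and -0.86 on replicates 1 to 4, while it lay between -0.17 and 0.11 on the other 12 arrays. Every one of the 10 had its 4 activated 16 h ratios below its 12 others, a pattern shared by 1.82% of genes. Among all 17101 genes, 30.1% were called in this comparison and 13.2% were called lower. Since this ratio chose the genes, nothing is read from these counts.

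**Figure D1:**
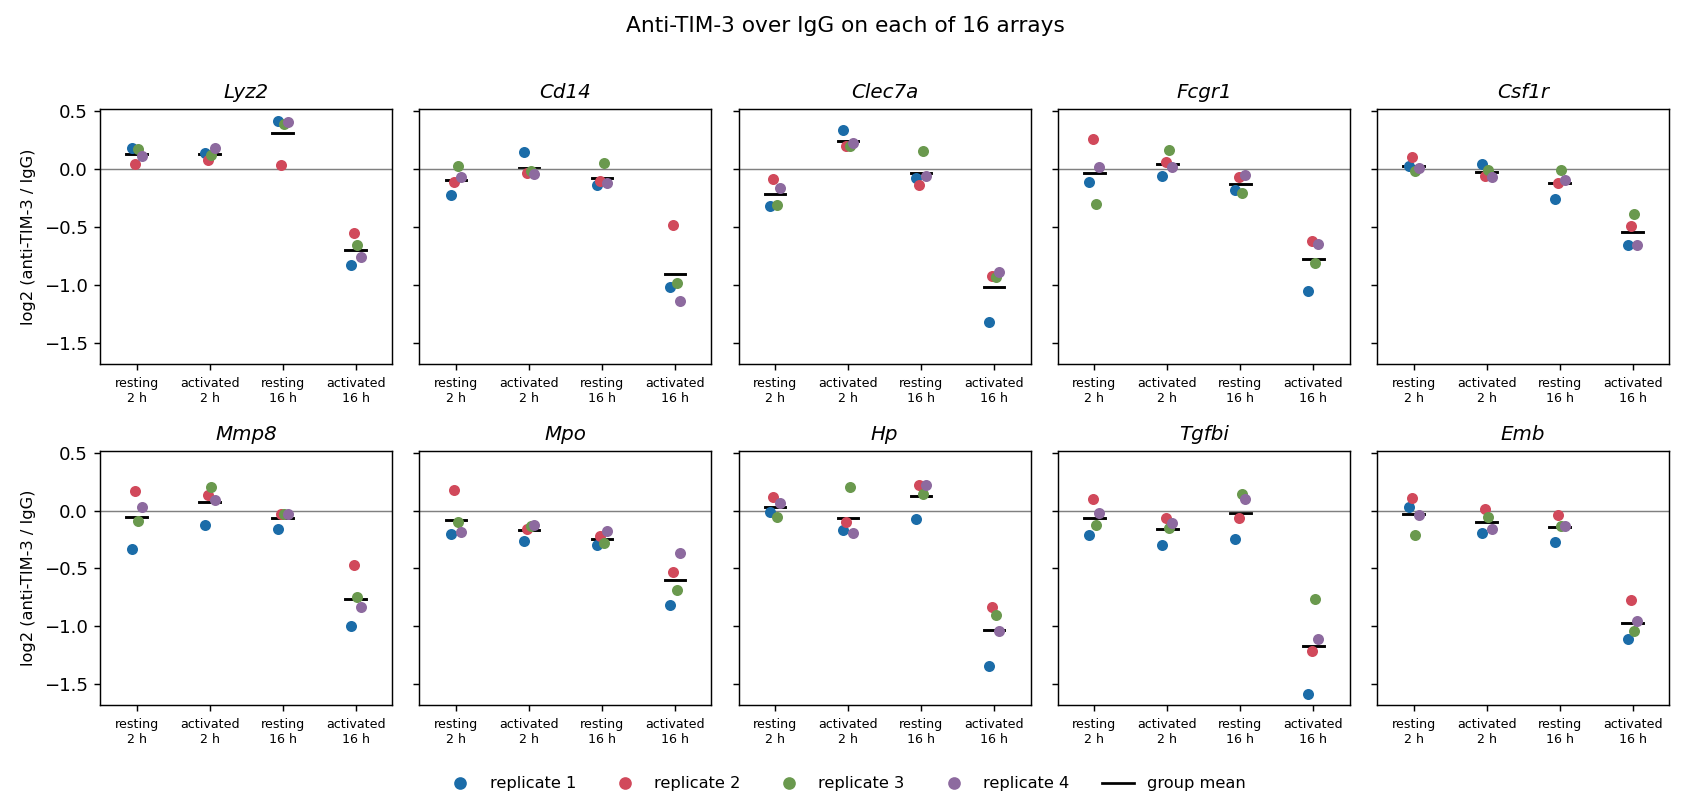
Log2 ratio of anti-TIM-3 (Cy5) over IgG (Cy3) on each of the 16 arrays for the 10 genes, 1 panel per gene. Points are arrays coloured by replicate number and bars are group means. The activated 16 h arrays lie between -1.58 and -0.37, below all other arrays of the same gene.

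The 4 receptors among them were lower by 1.46-fold to 2.02-fold. Cd14, the co-receptor that hands bacterial lipopolysaccharide to TLR4, had log2 ratios of -1.02, -0.49, -0.99 and -1.14 in activated cells at 16 h (mean -0.91 ± 0.29, SD, n = 4). Its ratios on the other 12 arrays ran from -0.22 to 0.14, so the groups did not overlap. Clec7a, or Dectin-1, binds fungal beta-glucan and signals through Syk. Its ratios were -1.32, -0.92, -0.93 and -0.89 (mean -1.02 ± 0.21, SD, n = 4), with replicate 1 the lowest and the other arrays close together. Fcgr1, the high-affinity receptor for IgG, had ratios of -1.05, -0.62, -0.81 and -0.65 (mean -0.78 ± 0.20, SD, n = 4). Csf1r, the receptor for the macrophage growth factors M-CSF and IL-34, had ratios of -0.66, -0.49, -0.39 and -0.65 (mean -0.55 ± 0.13, SD, n = 4). Csf1r was the nearest to 0 of the 10 genes.

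The genes of granule and secreted proteins were lower by 1.52-fold to 2.04-fold. Lyz2, lysozyme M, cuts bacterial cell walls and is made by macrophages and granulocytes. Its ratios were -0.83, -0.55, -0.66 and -0.76 (mean -0.70 ± 0.12, SD, n = 4), whereas all 12 other arrays were above 0 with loess, at 0.03 to 0.42. From Agilent's processed signals 8 of these 12 were below 0, including all 4 resting 2 h and 3 of 4 activated 2 h arrays, with a range of -0.11 to 0.12. Mmp8, the neutrophil collagenase whose promoter is shown above, had ratios of -1.00, -0.47, -0.74 and -0.83 (mean -0.76 ± 0.22, SD, n = 4). Mpo, myeloperoxidase, makes hypochlorous acid in neutrophil granules. Its ratios were -0.82, -0.53, -0.68 and -0.37 (mean -0.60 ± 0.19, SD, n = 4), and replicate 4 lay just below -0.30, the lowest of the other 12 arrays. Hp, haptoglobin, binds free haemoglobin. Its ratios were -1.34, -0.84, -0.90 and -1.04 (mean -1.03 ± 0.23, SD, n = 4), and its other 12 arrays ran from -0.20 to 0.22.

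The remaining pair are genes of matrix and surface. Tgfbi, an extracellular matrix protein that binds integrins and is induced by TGF-beta, had the lowest mean of the 10 with loess: its ratios were -1.58, -1.22, -0.77 and -1.11 (mean -1.17 ± 0.34, SD, n = 4), which is 2.25-fold lower. It also had the widest spread between arrays. With processed signals and with median centring Hp was lower than Tgfbi, at -1.43 against -1.29 and at -0.73 against -0.69. Emb, embigin, is a surface glycoprotein that accompanies monocarboxylate transporters. Its ratios were -1.11, -0.77, -1.04 and -0.95 (mean -0.97 ± 0.15, SD, n = 4), against -0.27 to 0.11 on the other 12 arrays.

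A second probe was kept for 4 of the genes, and it was low in activated cells at 16 h too. The mean ratio of that probe was -0.52 for Lyz2, -0.39 for Fcgr1, -0.34 for Csf1r and -0.79 for Emb. The second Lyz2 probe did not share the positive ratios of the first in the other groups, with means of -0.04, -0.01 and 0.06 in resting 2 h, activated 2 h and resting 16 h cells. In the same order the second Csf1r probe was below 0 throughout, at -0.15, -0.15 and -0.08. Those of Fcgr1 and Emb lay between -0.09 and 0.02 in these groups.

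Replicate 1 had the lowest activated 16 h ratio for 9 of the 10 genes, all but Cd14, and replicate 2 the highest for 6 (Lyz2, Cd14, Fcgr1, Mmp8, Hp and Emb). Over all genes, 27.8% had replicate 1 lowest and 28.1% had replicate 2 highest. From Agilent's processed signals the counts were 8 and 4 of the 10.

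The size of the ratio depended on how the arrays were normalised. With each array centred on its median in place of a loess curve, the activated 16 h median over all genes was 0.39, and 88.7% of the genes called were higher, against 56.0% with loess and 48.8% from the processed signals. The 10 genes then had a median of -0.39, and Lyz2 was at 0.13, the only one above 0. Relative to the median of all genes, the 10 lay between -1.12 and -0.25 with median centring and between -1.18 and -0.56 with loess. Taking the activated 16 h mean minus the mean of the other 3 groups removes a constant bias. This difference was -1.09 to -0.44 over the 10 genes with loess and -1.02 to -0.43 with median centring. With median centring all 4 activated 16 h arrays were below the 12 others for 9 of the 10 genes, and 3 arrays were for Mmp8. For Lyz2 under median centring, the group means were 0.80, 0.88 and 1.04 in resting 2 h, activated 2 h and resting 16 h cells against 0.13 in activated 16 h cells. Processed signals gave a more negative mean for each of the 10, such as -1.43 for Hp against -1.03 with loess and an offset of 50 intensity units.

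**Figure D2:**
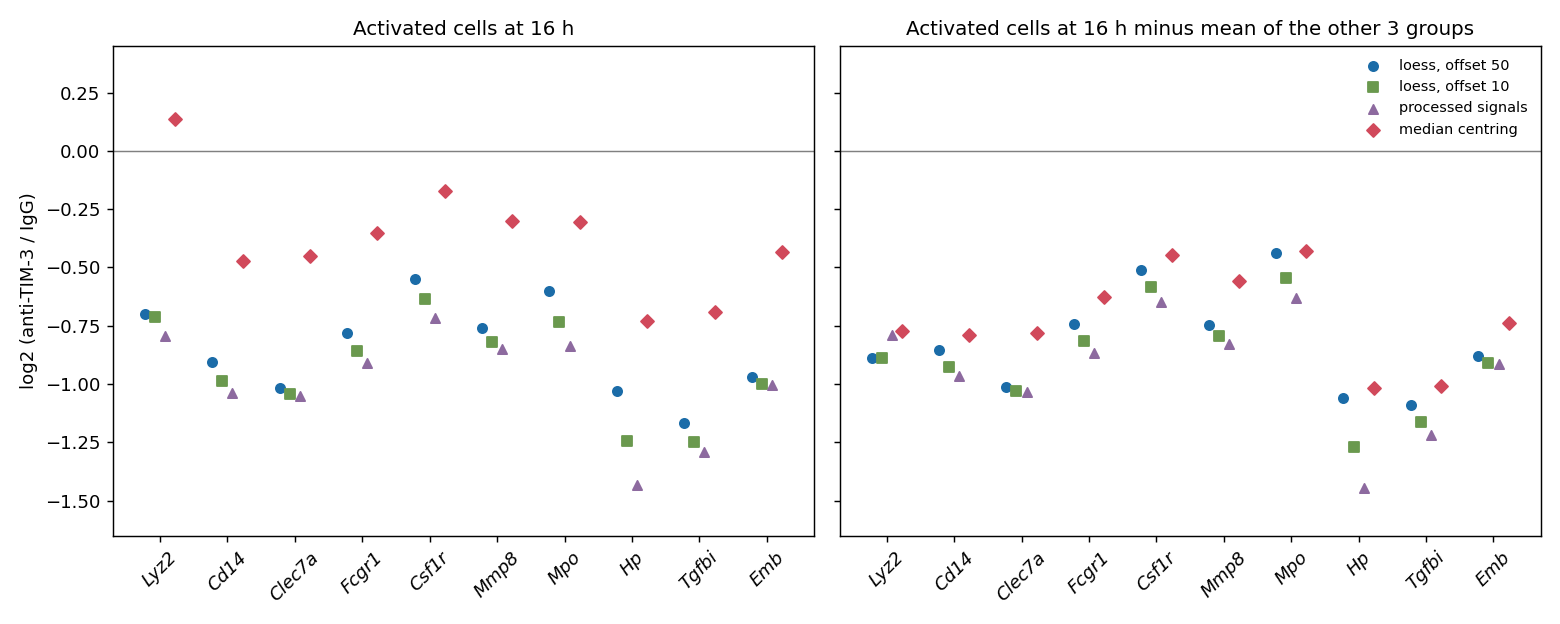
Activated 16 h log2 ratio of the 10 genes under 4 normalisations (left), and the same mean minus the mean of the other 3 groups (right), in log2 units. With median centring Lyz2 is at 0.13 on the left, while all 10 differences on the right are below 0 under each of the 4 normalisations.

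Both channels were then read as levels, as log2 intensity scaled between arrays, to see where each gene stood by time and antigen. Differences that involve activated 16 h cells are descriptions. Clec7a and Mmp8 stood high in late cells. The mean Cy3 level of Clec7a was 9.47 ± 0.88 in resting 2 h, 9.84 ± 0.76 in activated 2 h, 10.81 ± 1.02 in resting 16 h and 11.70 ± 1.05 in activated 16 h cells (SD, n = 4). With anti-TIM-3, its mean Cy5 level in activated 16 h cells was 10.68 ± 0.92 (SD, n = 4), near its 10.78 ± 1.01 in resting 16 h cells. Mmp8 had the same order of groups at 16 h, with Cy3 at 9.53 ± 0.69 in resting and 9.97 ± 0.55 in activated cells, and Cy5 at 9.47 ± 0.64 and 9.20 ± 0.33 (SD, n = 4). Neighbouring groups in these orders overlapped between arrays.

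In contrast, Cd14 was highest in activated 2 h cells. Its mean Cy3 level was 11.20 ± 0.69 there and 9.74 ± 0.66 in activated 16 h cells (SD, n = 4), a difference of 2.75-fold, and the Cy5 difference over the same time was 5.20-fold. Fcgr1 was highest in resting 16 h cells, at 10.52 ± 0.97 in Cy3, against 9.62 ± 0.89 in activated 16 h cells (SD, n = 4). Lyz2, Csf1r, Mpo and Tgfbi had lower Cy3 means in activated than in resting cells at 16 h by 0.58, 0.73, 0.77 and 0.28, and their Cy5 means were lower by 1.58, 1.16, 1.12 and 1.43. Hp was the only gene besides Clec7a and Mmp8 whose Cy3 mean at 16 h was higher with antigen, by 0.28, while its Cy5 mean was 0.87 lower. In Cy5, all 10 genes had lower means in activated than in resting cells at 16 h, by 0.10 for Clec7a up to 1.58 for Lyz2. In Cy3 this held for 7 of the 10.

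**Figure D3:**
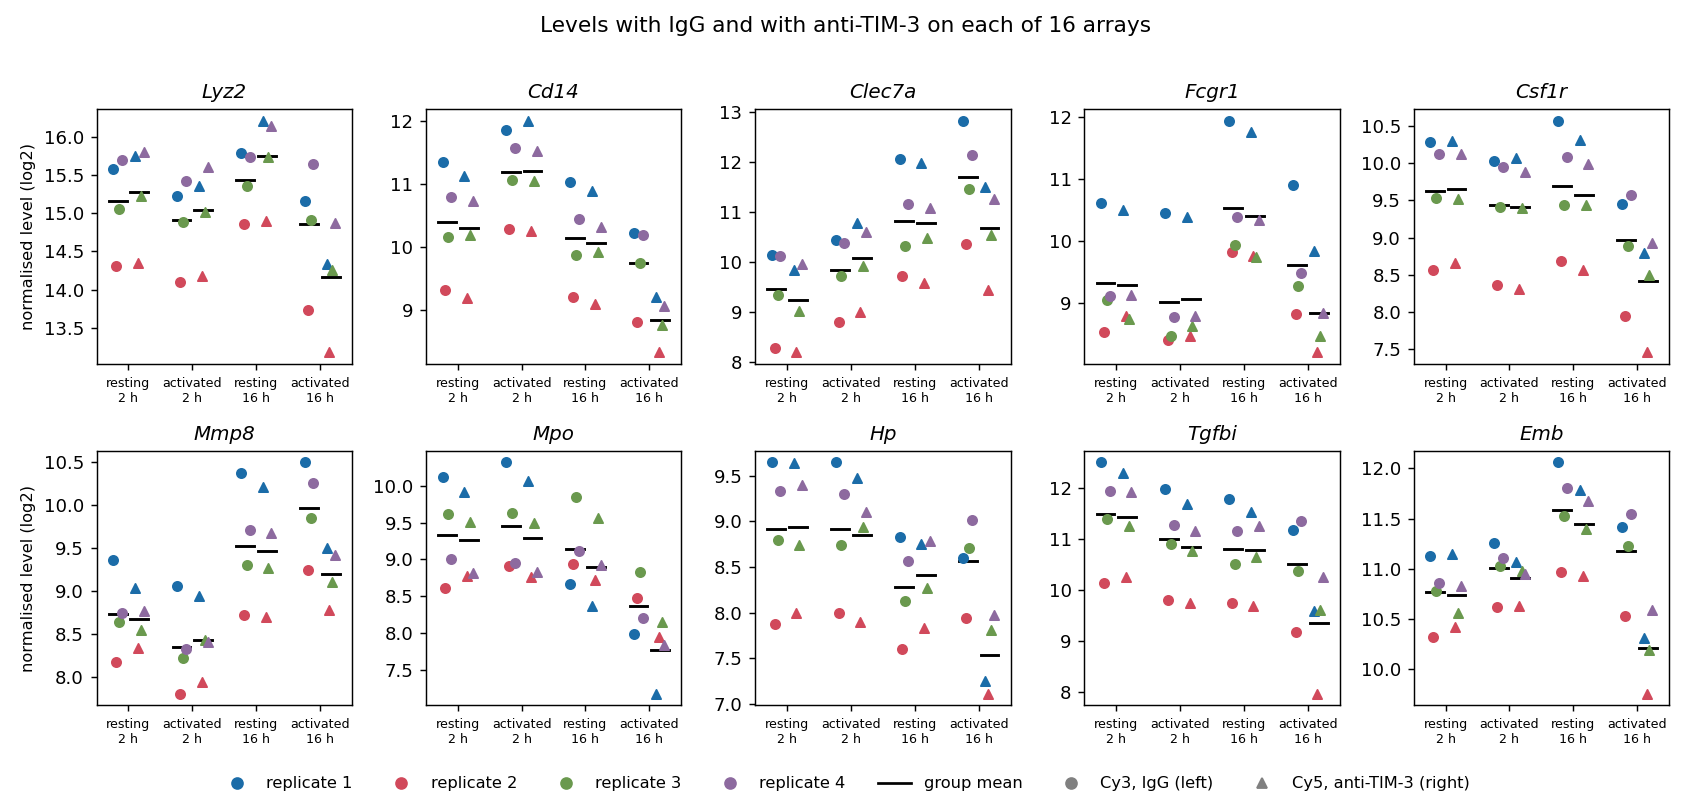
Log2 level of each gene with IgG (Cy3, circles) and anti-TIM-3 (Cy5, triangles) on every array, by group. The 2 channels lie close together in the resting 2 h, activated 2 h and resting 16 h groups, and the Cy5 points lie below the Cy3 points in activated 16 h cells.

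In the 3 other groups the ratio of anti-TIM-3 over IgG was tested with limma over all genes. In resting 2 h cells, 1 of 10 was called, against 14.0% of all genes. It was Clec7a, whose ratios of -0.32, -0.09, -0.31 and -0.17 gave a mean of -0.22 ± 0.11 (SD, n = 4, limma adjusted p = 0.0289). All 4 arrays were below 0. The call was lost without replicate 1 (-0.19, adjusted p = 0.151), replicate 3 (-0.19, adjusted p = 0.106) or replicate 4 (-0.24, adjusted p = 0.0519), and without the 3 arrays that stood apart (-0.19, adjusted p = 0.0812). With median centring the mean was 0.029.

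In activated 2 h cells, 2 of 10 were called, against 33.3% of all genes. Clec7a rose with anti-TIM-3, with ratios of 0.34, 0.20, 0.20 and 0.22 (mean 0.24 ± 0.07, SD, n = 4, limma adjusted p = 0.00805). Mpo fell, with ratios of -0.26, -0.16, -0.13 and -0.12 (mean -0.17 ± 0.06, SD, n = 4, limma adjusted p = 0.0494). The Mpo call was lost without any one of its 4 arrays (adjusted p = 0.0860 to 0.178), with the slide as a block (-0.13, adjusted p = 0.266) and it turned to 0.12 with median centring. Cd14, whose level was highest in this group, had ratios of 0.14, -0.03, -0.02 and -0.04 and was not called.

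The response of Clec7a at 2 h differed between activated and resting cells. Activated minus resting was 0.46 (SE 0.09, limma adjusted p = 0.00459), with all 4 activated arrays above 0 and all 4 resting arrays below 0, and a constant dye bias cancels in it. It was the only one of the 10 genes called in this comparison, against 5.59% of all genes. On the 2 slides that held both groups it was 0.58 and 0.52, and without resting 2 h replicate 3, which stood apart, it was 0.43 (limma adjusted p = 0.0127).

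In resting 16 h cells, 2 of 10 were called, against 21.6% of all genes. Lyz2 rose, with ratios of 0.42, 0.03, 0.39 and 0.40 (mean 0.31 ± 0.19, SD, n = 4, limma adjusted p = 0.00124). Replicate 2 stood below the other 3. Its mean was 0.06 from the processed signals (limma adjusted p = 0.492), and 0.22 without the 3 arrays that stood apart (limma adjusted p = 0.152). Mpo fell, with ratios of -0.30, -0.22, -0.28 and -0.18 (mean -0.24 ± 0.06, SD, n = 4, limma adjusted p = 0.0127). This call was lost without replicate 1 (-0.23, adjusted p = 0.0718), without replicate 3 (-0.23, adjusted p = 0.0667) and without the 3 arrays that stood apart (-0.20, adjusted p = 0.318). With median centring the mean was 0.090. Between resting 16 h and resting 2 h cells, limma called the ratio of 0 of the 10 genes, against 0.281% of all genes. At an unadjusted p under 0.05 there were 2, Lyz2 with a difference of 0.18 and Csf1r with -0.15. Without resting 16 h replicate 2, Lyz2 was called, and without the 3 arrays that stood apart 0 were called.

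Antigen and time were tested in the IgG control channel, where replicate numbers pair the arrays. With the replicate number as a block, 6 of the 10 genes were called in Cy3 for antigen at 2 h, in both directions. This is near the 46.4% of all genes called, so nothing particular to the 10 is read from the count. Cd14 rose 1.74-fold: its paired differences were 0.52, 0.98, 0.91 and 0.78 on the log2 scale (mean 0.80, SE 0.10, limma adjusted p = 9.03e-06). Clec7a rose by 0.37 (SE 0.14, limma adjusted p = 0.0456) and Emb by 0.23 (SE 0.08, limma adjusted p = 0.0271). Tgfbi fell by 0.50, with paired differences of -0.52, -0.34, -0.47 and -0.67 (SE 0.12, limma adjusted p = 0.00327). Fcgr1 fell by 0.30 (SE 0.07, limma adjusted p = 0.00394) and Mmp8 fell by 0.37 (SE 0.09, limma adjusted p = 0.00261).

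Without the block, limma called 0 of the 10 genes for antigen at 2 h, and 0 at an unadjusted p under 0.05, against 42.9% of all genes called. With the block, the calls of Cd14, Fcgr1, Mmp8 and Tgfbi held without any one replicate number. Clec7a was lost without replicate 2, 3 or 4 and Emb without replicate 2 or 3. Without the 3 arrays that stood apart, the block gave 6 calls, with Emb lost and Csf1r added. In the Cy5 channel the mean differences were 0.90 for Cd14, 0.82 for Clec7a and -0.59 for Tgfbi. Within slides, the median difference over the 10 genes was -0.87 on slide 2 and 0.12 on slide 3. Slide 2 set activated replicates 1 and 2 against resting replicate 1, and slide 3 set activated replicates 3 and 4 against resting replicate 3. These differences therefore also hold differences between replicate numbers.

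The calls for time in culture also went in opposite directions. From 2 h to 16 h in resting IgG-treated cells, 8 of the 10 were called with the block, against 51.0% of all genes. Clec7a rose 2.53-fold (log2 1.34, SE 0.14, limma adjusted p = 1.92e-06), Fcgr1 rose 2.29-fold (log2 1.19, SE 0.07, limma adjusted p = 9.36e-09), and Mmp8 and Emb rose by 0.80 (limma adjusted p = 3.00e-06) and 0.82 (limma adjusted p = 9.47e-07). Lyz2 rose by 0.28 (limma adjusted p = 0.0467). Hp fell by 0.63 (limma adjusted p = 0.00216), Tgfbi fell by 0.70 (limma adjusted p = 0.000226) and Cd14 fell by 0.27 (limma adjusted p = 0.0327). Csf1r (0.07) and Mpo (-0.20) were not called.

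Without the block, Emb was the only call for time (0.82, limma adjusted p = 0.0114), against 46.9% of all genes. There were 3 calls without resting 2 h replicate 1 (Fcgr1, Mmp8 and Emb) or without resting 16 h replicate 2 (Clec7a, Mmp8 and Emb), and 2 without resting 2 h replicate 2 (Hp and Emb). Without the 3 arrays that stood apart, Emb was not called (0.62, limma adjusted p = 0.163) and there were 0 calls. With the block, Lyz2 was lost without replicate 1, 2 or 3 and Cd14 without replicate 3 or 4, and both were lost without the 3 arrays that stood apart, which left 6 calls. Within slides, the median difference over the 10 genes was 0.16, -0.99 and 1.74 on slides 1, 2 and 4. Slide 1 set 16 h replicates 3 and 4 against 2 h replicate 4, slide 2 set replicate 2 against 1, and slide 4 replicate 1 against 2.

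The level of these genes followed the replicate number. This pattern was known when the genes were chosen, so it is described without a test and nothing is read from the counts. In Cy3, replicate 2 was the lowest array of all 4 groups for 9 of the 10 genes, all but Mpo, against 4.05% of genes, and in Cy5 for 8, all but Fcgr1 and Mpo, against 3.60%. In Cy3, replicate 1 was also the highest in all 4 groups for 4 of them (Cd14, Clec7a, Fcgr1 and Mmp8), against 1.02% of genes, and in Cy5 for 2 (Cd14 and Mmp8), against 0.853%. Tgfbi shows the pattern: its Cy3 levels in replicates 1 to 4 were 12.50, 10.14, 11.38 and 11.94 in resting 2 h cells and 11.16, 9.17, 10.36 and 11.35 in activated 16 h cells. Averaged over the groups, replicate 1 exceeded replicate 2 by 4.40-fold for Tgfbi, 4.20-fold for Clec7a and Fcgr1, 3.30-fold for Cd14 and 3.23-fold for Csf1r. The factor was 2.53 for Mmp8, 2.51 for Hp, 2.28 for Lyz2 and 1.81 for Emb. These differences between replicate numbers were larger than the activated 16 h ratio of each of these genes except Emb, whose ratio was 1.96-fold.

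Mpo was apart. In replicate 1 its Cy3 level was 10.13 and 10.32 at 2 h in resting and activated cells, and 8.67 and 7.99 at 16 h. Its deviations from the group means correlated at 0.07 to 0.41 with those of the other 9 genes over 16 arrays. Among those 9 the correlations were 0.57 to 0.99, with a median of 0.93. The 16 points share replicate numbers, and no test was made.

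**Figure D4:**
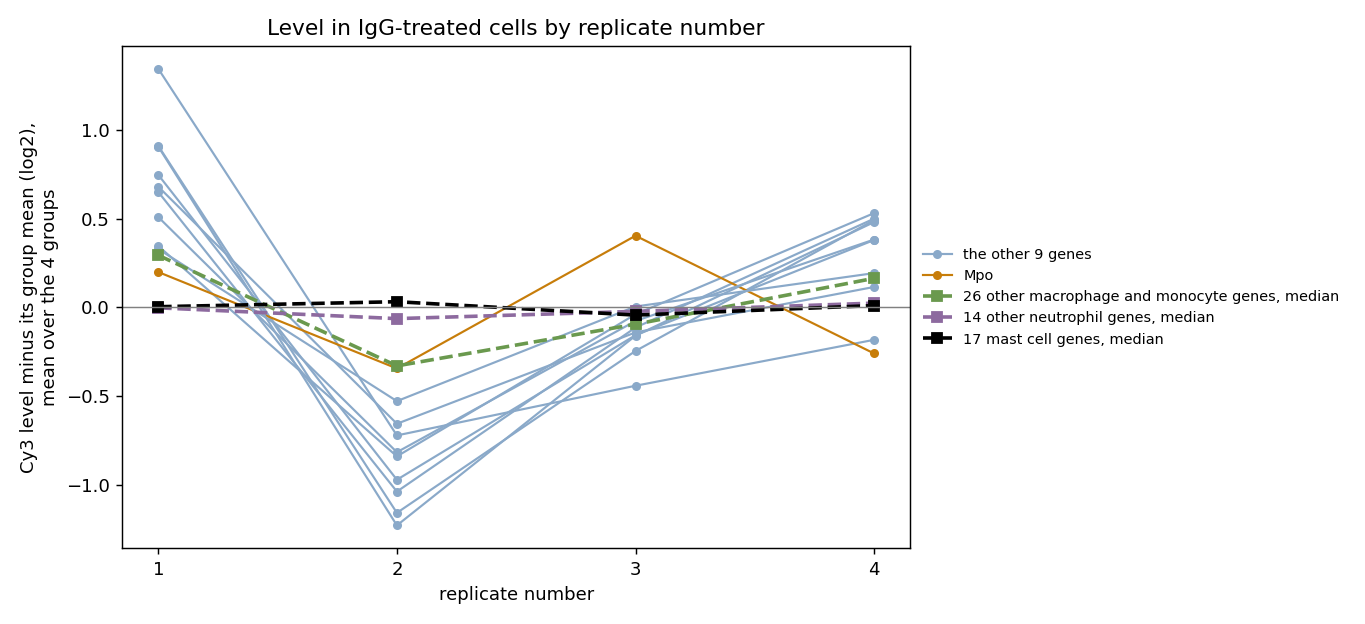
Cy3 level minus the group mean, averaged over the 4 groups, by replicate number, in log2 units. Lines link the values of a gene and replicate numbers have no order. The plot holds the 10 genes (Mpo in orange) and the medians of 26 macrophage, 14 neutrophil and 17 mast cell markers. Replicate 2 has the lowest mean deviation for each of the 10 genes, while the mast cell median lies between -0.04 and 0.03.

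Markers of other cells moved with the replicate number to different extents. Of 26 other macrophage and monocyte markers kept, 22 had a higher mean Cy3 level in replicate 1 than in replicate 2, against 6109 of all 17101 genes. Their median deviations were 0.29 and -0.33. Of 10 dendritic cell and antigen presentation genes, 8 did so, with median deviations of 0.30 and -0.62. The 14 neutrophil markers kept had medians of -0.0021 and -0.06, and the 17 mast cell markers 0.0040 and 0.03. Summed over the 25 macrophage markers measured on every array, the Cy3 level was 27350 to 57152 in resting 2 h, 38177 to 63383 in activated 2 h, 40715 to 92793 in resting 16 h and 38859 to 86979 in activated 16 h cells. Replicate 1 was 1.61 to 2.28 times replicate 2 in that sum within a group, and 0.94 to 1.03 times in the sum of mast cell markers. The macrophage sum adds unlogged levels, so its brightest genes weigh most. These were Ctss, Ccl9, Ccl6 and Sirpa, with mean log2 Cy3 levels of 13.74, 13.06, 12.95 and 12.58. Mpeg1 was left out of the sum, as it lacked a value in resting 16 h cells.

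Neutrophil genes differed in detection, and 14 of the 22 on the array were kept. Ctsg, Ms4a3, S100a9, Gfi1, Pglyrp1 and Chil3 were well above background on 16 of 16 arrays in both channels, and Padi4 on 14 in Cy3 and 16 in Cy5. In contrast, Elane, Camp, Ngp, Lcn2, Itgb2l, Fcnb and Retnlg were well above background on 0 of 16 arrays in both channels, and Ltf on 2 in Cy3 and 6 in Cy5. Of the macrophage list, Retnla and Arg1 were above background on 0 arrays, and C1qa on 1 in Cy3 and 3 in Cy5. In activated 16 h cells the summed level of the 14 neutrophil markers kept was 7755 to 10449 in Cy3 and 5811 to 8159 in Cy5. This sum adds unlogged levels and is mostly Ctsg, a gene that mast cells also express. The mean log2 Cy3 level of Ctsg was 12.92, and that of Gfi1, the next brightest of the 14, was 9.38. The sum of the 25 macrophage markers was 35041 to 71219 in Cy5. The part of other cells in the low ratios was not tested.

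The rest of each marker list was then read at the activated 16 h ratio. The 10 genes had been taken out of these lists for their low ratio, so what remained leans towards genes that were not low. Of 26 macrophage and monocyte markers, 17 fell and 2 rose, with a median of -0.27, against 13.2% of all genes lower and 16.9% higher. With median centring 6 fell and 13 rose, against 1531 and 12053 of all 17101 genes. Their median was then 0.14, which is 0.25 below that of all genes. Mpeg1, which encodes the pore-forming protein perforin-2, was at -0.78 (limma adjusted p = 7.54e-08). The scavenger receptors Msr1 and Marco were at -0.69 (limma adjusted p = 0.000158) and -0.62 (limma adjusted p = 8.49e-05), and the lysosomal glycoprotein Cd68 at -0.53 (limma adjusted p = 2.60e-07). In resting 2 h cells 2 of the 26 were called higher and 0 lower, against 14.0% of all genes called, in activated 2 h cells 2 and 4, against 33.3%, and in resting 16 h cells 3 and 3, against 21.6%. Without the 3 arrays that stood apart the counts were 3 and 2 in resting 2 h and 1 and 0 in resting 16 h cells. Among these genes the chemokine Ccl9 rose by 0.68 in activated 2 h cells (limma adjusted p = 5.30e-09) and Marco fell by 0.34 in resting 16 h cells (limma adjusted p = 0.0168), a call lost without the 3 arrays (-0.15, adjusted p = 0.558).

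Of 14 neutrophil markers, 2 fell and 2 rose at the activated 16 h ratio, near the 13.2% and 16.9% of all genes. Their median was -0.0086, and with median centring 4 fell and 2 rose, against 1531 and 12053 of 17101 genes. Ctsg, the granule protease cathepsin G, which mast cells also make, was at -0.51 (limma adjusted p = 5.46e-07), and Gfi1, a repressor needed for neutrophil development, at -0.49 (limma adjusted p = 3.67e-06). With median centring neither was called, at 0.14 and -0.02. Ms4a3 and Pglyrp1 rose by 0.23 (limma adjusted p = 0.000114) and 0.18 (limma adjusted p = 0.00563). In the other groups, 1 call was made in this list, of Gfi1 in resting 2 h cells (-0.19, limma adjusted p = 0.0294), which was at -0.18 (adjusted p = 0.0457) without the 3 arrays and at 0.07 with median centring. Over all genes 14.0%, 33.3% and 21.6% were called in resting 2 h, activated 2 h and resting 16 h cells.

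Mast cell markers had a positive median ratio in each of the 4 groups. Of 17, 12 rose and 3 fell at the activated 16 h ratio, against 16.9% of all genes higher and 13.2% lower. Their median was 0.22 there, and 0.15, 0.12 and 0.22 in resting 2 h, activated 2 h and resting 16 h cells. From processed signals 7 rose and 3 fell, with a median of 0.13, against 2338 and 2457 of all 17101 genes. With median centring 16 rose and 0 fell, against 12053 and 1531 of all genes. Il1rl1, the IL-33 receptor, was at 0.89 (limma adjusted p = 4.47e-09), Fcer1a, the IgE-binding chain, at 0.86 (limma adjusted p = 0.000220), the histamine-forming enzyme Hdc at 0.83 (limma adjusted p = 8.86e-06) and the protease Cma1 at 0.67 (limma adjusted p = 5.06e-07). The 3 that fell with loess were Tpsb2 (-0.57, limma adjusted p = 0.000333), Tpsab1 (-0.31, limma adjusted p = 0.00581) and Mcpt2 (-0.11, limma adjusted p = 0.0287). In resting 2 h, activated 2 h and resting 16 h cells Il1rl1 was at 0.69, 0.72 and 0.83. In the same order Fcer1a was at 0.80, 0.08 and 1.33, Hdc at 0.15, 0.90 and 0.22, and Cma1 at 0.66, 0.49 and 0.94. In resting 2 h, activated 2 h and resting 16 h cells 7, 6 and 10 of the 17 rose and 0, 0 and 2 fell. Over all genes 14.0%, 33.3% and 21.6% were called, up or down, in these groups. From processed signals 3, 4 and 5 rose and 0, 2 and 2 fell, with medians of 0.05, 0.05 and 0.14. Over all genes 1055, 2261 and 1536 then rose and 1061, 3648 and 1512 fell. Il1rl1, Fcer1a and Cma1 were then at 0.28, 0.42 and 0.28 in resting 2 h cells, and Fcer1a was not called (limma adjusted p = 0.0702). Without the 3 arrays that stood apart, 7 rose and 0 fell in each resting group. The median over the 10 myeloid genes lay between -0.17 and 0.11 on each array of resting 2 h, activated 2 h and resting 16 h cells.

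**Figure D5:**
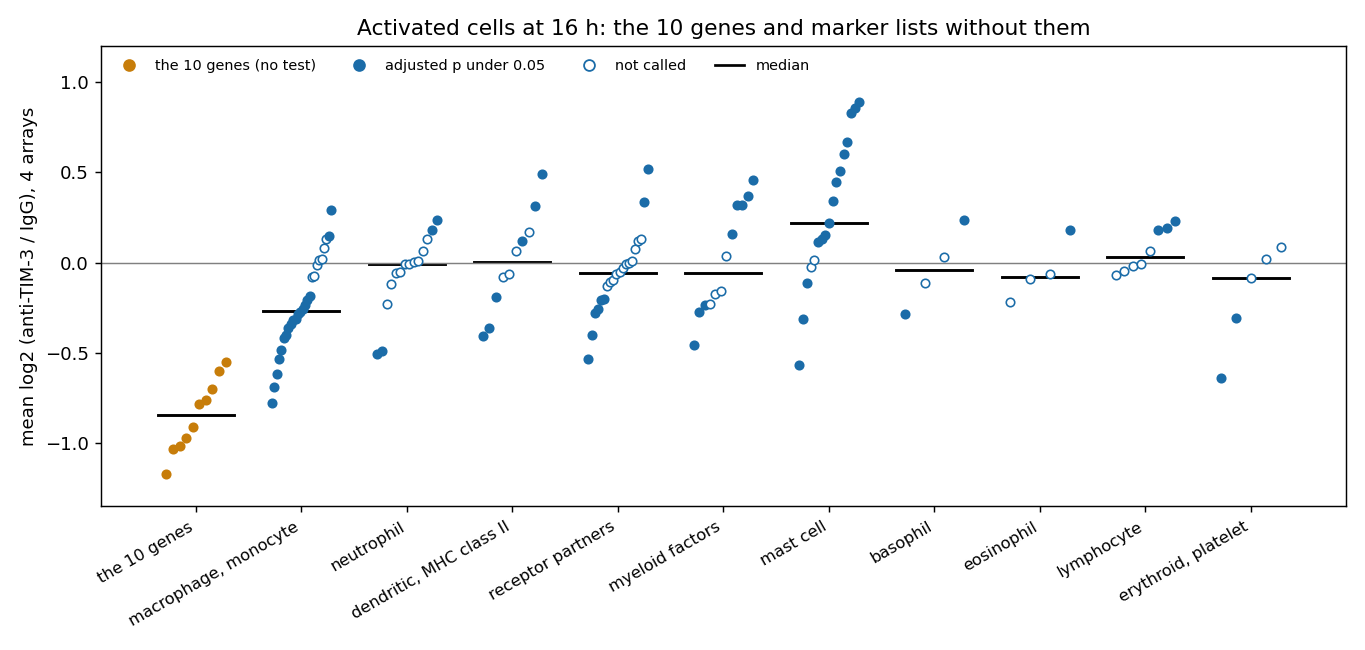
Mean log2 ratio of anti-TIM-3 over IgG in activated cells at 16 h for the 10 genes and for the other kept members of each marker list. Filled points have a limma adjusted p under 0.05. Over all genes 13.2% were called lower and 16.9% higher with loess. With median centring 12053 of 17101 genes were called higher and 1531 lower, and from processed signals 2338 and 2457. Of the macrophage markers 17 lie lower and 2 higher with loess (6 and 13 with median centring), and of the mast cell markers 12 lie higher and 3 lower (7 and 3 from processed signals, 16 and 0 with median centring).

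Regulators and partners of the 10 genes did not move as 1 group. Of 12 myeloid transcription factors, 5 rose and 3 fell at the activated 16 h ratio, with a median of -0.06, whereas with median centring 9 rose and 0 fell. Over all genes 16.9% rose and 13.2% fell, and with median centring 12053 and 1531 of 17101 did. Cebpb, a C/EBP factor of macrophages and granulocytes, was at -0.46 (limma adjusted p = 0.00365), and at 0.25 with median centring. Spi1, which encodes PU.1, was at -0.23 and not called (limma adjusted p = 0.0820). Egr2, Irf8 and Id2 were at 0.45 (limma adjusted p = 0.00141), 0.37 (limma adjusted p = 1.29e-05) and 0.32 (limma adjusted p = 0.00359), and Id2 was not called from processed signals (0.15, adjusted p = 0.173). In resting 16 h cells Id2 was at 0.39 (limma adjusted p = 0.00226), Cebpb at -0.35 (limma adjusted p = 0.0302), Spi1 at -0.33 (limma adjusted p = 0.0201) and Myb at -0.29 (limma adjusted p = 0.0106). Without the 3 arrays that stood apart Id2 was still called (0.39, adjusted p = 0.0217), while Cebpb (-0.14), Spi1 (-0.28) and Myb (-0.18) were not (adjusted p = 0.635, 0.287 and 0.380). With median centring Cebpb and Myb were at 0.21 and 0.26.

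Of 20 ligands, co-receptors and signalling partners of the 4 receptors and of Emb, 2 rose and 6 fell at the activated 16 h ratio, against 16.9% and 13.2% of all genes. Their median was -0.06, whereas with median centring 16 rose and 1 fell, against 12053 and 1531 of 17101 genes. Csf1, the ligand of Csf1r, was at -0.53 (limma adjusted p = 1.57e-06) with loess and 0.03 with median centring, and Tlr1 at -0.40 (limma adjusted p = 0.00283). Fcgr2b, the inhibitory IgG receptor, was at 0.52 (limma adjusted p = 1.82e-06), and Fcer1g, the signalling chain that pairs with Fcgr1, at 0.34 (limma adjusted p = 0.00426). At 2 h in activated cells Csf1 had been at 0.86 (limma adjusted p = 3.27e-09), Malt1, which acts below Clec7a and Syk, at 1.18 (limma adjusted p = 7.97e-10) and Syk itself at -0.31 (limma adjusted p = 0.000204), or 0.02 with median centring.

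The genes most like the 10 in level were found by Pearson's r with the mean profile of the 10 over 32 channel values among 16763 other genes, as a description. They were Tlr7 (0.94), Pld4, Clec5a, Evl and Cd302 (0.93), and Fabp3, Rin2 and Rasa4 (0.92). The 32 values share arrays and replicate numbers, and they include the activated 16 h Cy3 and Cy5 levels whose difference chose the 10. Replicate 1 exceeded replicate 2 by 1.01 to 1.66 on the log2 Cy3 scale in these 8 genes. Their activated 16 h ratios, whose sign the profile partly sets, ran from -0.21 for Rin2 to -0.62 for Fabp3. Of the 10 themselves, Csf1r was the most like the mean profile (0.95) and Mpo the least (0.45).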

How the data were processed

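RNA from 16 two-colour Agilent Whole Mouse Genome arrays was analysed. The authors deposited Feature Extraction scanner output (version 9.1.3.1 per the file headers) with spot intensity in each channel, and a table of log10 ratios, which equalled the deposited log10 ratios of the scanner files and was not used further. Spot intensities were background-corrected by normexp (offset 50), normalised by loess within arrays, and scaled between arrays by Aquantile for levels, with limma 3.58.1 in R 4.3.3. Outlier spots (596 of 273616 values) were left out. A probe was kept if Cy3 or Cy5 rose well above background on 3 or more of the 4 arrays in any group, which left 25420 probes. Gene names came from accession (22951 probes), current symbol (6659) or older symbol (3109), and 8455 kept the name in the file. The number of arrays limits the precision.

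Group means over all 16 arrays were fitted with limma, with p-values adjusted by Benjamini-Hochberg over all genes. The text names the 10 genes, at most 4 called genes per list and comparison with the largest mean, and the 8 most alike. It also names the 3 mast cell markers that fell at the activated 16 h ratio, and some list genes for their detection or brightness. The genes, lists and comparisons were chosen with earlier results of these data known. In Cy3, same-numbered arrays deviated together (correlations 0.114 to 0.679, over 0.1 in 6 of 6 pairs of groups), so blocked values are given for levels. The pairing comes from the replicate numbers in the labels and this check. On data simulated for 16773 genes, changes of 0.5 on the log2 scale were recovered for 97, 94 and 99% of the genes changed in the resting 2 h, activated 2 h and resting 16 h ratios. The simulated noise was independent between genes and arrays, with no dye bias, and 100 genes were changed at each size. It therefore checks the code and does not give the recovery in these data. Alternatives tried were the offset, processed signals, median centring, other between-array scaling, filters, mean of probes, blocks and leaving out arrays.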

Additional observations from a re-analysis of the deposited data

Results flagged for a closer look

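Of 120 sets of 4 arrays (10 genes, 4 groups, the ratio and both channels), 5 held an array far from the other 3, and chance flags about 1 in 20. The Lyz2 ratio in resting 16 h replicate 2 was 0.031 against 0.39 to 0.42. The Cd14 ratio in activated 2 h replicate 1 was 0.14 against -0.04 to -0.02. The Clec7a ratio in activated 16 h replicate 1 was -1.32 against -0.93 to -0.89. The Fcgr1 level with anti-TIM-3 in activated 2 h replicate 1 was 10.38 against 8.47 to 8.80. The Mmp8 ratio in resting 16 h replicate 1 was -0.16 against -0.03 on the others.

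In 5 comparisons of groups, every array of 1 group had a positive ratio and every array of the other a negative one. The Lyz2 ratio of activated 16 h cells differed by -0.83 from that of resting 2 h cells and by -0.83 from that of activated 2 h cells, and resting 16 h minus activated 16 h was 1.01. From processed signals these opposite signs of Lyz2 were lost, with 8 of its 12 arrays outside activated 16 h below 0. The Clec7a ratio of activated 16 h minus activated 2 h cells was -1.25. These differences involve the ratio that chose the genes and were not tested. The Clec7a ratio of activated minus resting cells at 2 h was 0.46, and here the difference itself was tested (SE 0.09, limma adjusted p = 0.00459).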

How the results depend on the processing

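Median centring, which leaves the curve against intensity in place, turned the ratio of Clec7a in resting 2 h cells to 0.029, of Mpo in activated 2 h cells to 0.12 and in resting 16 h cells to 0.090, and of Lyz2 in activated 16 h cells to 0.13. Under it, 8, 9 and 9 of the 10 genes were called in resting 2 h, activated 2 h and resting 16 h cells, against 10137, 10289 and 11536 of all genes higher and 350, 800 and 981 lower. Clec7a (1 of 10) was called in resting 16 h minus 2 h, and the activated 16 h median was -0.39. Nothing particular to the 10 genes is read from the counts in this section. Without the 3 arrays that stood apart, chosen after seeing the data, 0 of the 10 were called in resting 2 h and 0 in resting 16 h cells. Over all genes 1378 and 364 were then higher and 1451 and 160 lower. For levels this gave 0 of the 10 for time, or 6 for antigen and 6 for time with the replicate block. Fitting only the groups compared gave 0 calls in resting 2 h and 4 in activated 2 h cells. In activated 2 h cells, 1 call (Clec7a) was left with an offset of 10, with processed signals, with no filter and with the slide as a block, and in resting 16 h cells 1 (Mpo) with processed signals. The Clec7a calls in activated 2 h cells and in activated minus resting cells held under every alternative run (highest adjusted p = 0.0463 and 0.0190). The causes were not tested.

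For levels, the replicate block gave 6 calls for antigen and 8 for time. In Cy5 with the block, added after seeing the data, there were 5 (Lyz2, Cd14, Clec7a, Csf1r and Tgfbi) and 7, and in Cy5 without it 3 for time. With the replicate block on ratios, 1, 2, 3, 1 and 0 of the 10 were called in resting 2 h, activated 2 h, resting 16 h, activated minus resting and resting 16 h minus 2 h, and the added call was Emb in resting 16 h cells (-0.14, adjusted p = 0.0249). Same-numbered ratios did not deviate together (correlations -0.45 to 0.64), so there the samples share a number only.

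Leaving out 1 array gave 0 to 1 calls in resting 2 h, 1 to 1 in activated 2 h, 1 to 2 in resting 16 h, 1 to 1 in activated minus resting and 0 to 1 in resting 16 h minus 2 h cells, and an activated 16 h median of -0.95 to -0.78. For levels it gave 0 to 6 calls for antigen and 1 to 7 for time, blocked fits included.

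Over all genes, calls numbered 2391 in resting 2 h cells, against 10487 with median centring and 369 from only the groups compared. They numbered 5698 in activated 2 h (11089 with median centring), 3699 in resting 16 h (12517, 1711 from only the groups compared, and 524 without the 3 arrays) and 5152 in activated 16 h cells (13584). Activated minus resting had 956 against 568 from only the groups compared, and resting 16 h minus 2 h had 48 against 296 with median centring and 274 with the block. Median Cy3 intensity was 61.25 to 78.82 over a background of 29.5 to 34.5, which limits dim probes.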

Other observations

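Genes of other blood cells were read at the activated 16 h ratio too, from lists chosen with earlier results known. For every list below, the all-gene shares at this ratio were 16.9% higher and 13.2% lower with loess. With median centring, 12053 of 17101 genes were called higher and 1531 lower. Of 10 dendritic cell and antigen presentation genes, 3 rose and 3 fell with loess, whereas with median centring 7 rose and 0 fell. Itgax, the integrin chain CD11c, rose by 0.49 (limma adjusted p = 1.78e-07) and the transcription factor Batf3 by 0.31 (limma adjusted p = 0.000174), while the MHC class II chains H2-Aa and H2-Eb1 were at -0.41 (limma adjusted p = 8.47e-06) and -0.36 (limma adjusted p = 0.000312), or 0.08 and 0.12 with median centring. Of 5 erythroid and platelet genes kept, 2 fell: the platelet chemokines Ppbp (-0.64, limma adjusted p = 6.95e-05) and Pf4 (-0.31, limma adjusted p = 0.00193). With median centring 2 of the 5 were called higher and 1 lower, with Ppbp at -0.43 and Pf4 at 0.25.

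Of 4 basophil genes, the IL-3 receptor chain Il3ra fell by 0.29 (limma adjusted p = 9.41e-05) and the protease Mcpt8 rose by 0.24 (limma adjusted p = 0.000322), whereas with median centring 4 were called higher and 0 lower. Mcpt8 also rose in the other groups, by 0.33, 0.40 and 0.34 in resting 2 h, activated 2 h and resting 16 h cells, and by 0.29 and 0.39 in the resting groups without the 3 arrays that stood apart. Of 4 eosinophil genes, Ccr3 rose by 0.18 (limma adjusted p = 0.000575), and in activated 2 h cells Siglecf rose by 0.75 (limma adjusted p = 8.95e-10). Of 8 lymphocyte genes, Cd79b, Nkg7 and Lck rose by 0.23, 0.19 and 0.18 (limma adjusted p = 0.00133, 0.00560 and 0.00141), and with median centring 4 were called higher and 3 lower.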
